A study of Mus musculus with 72 samples.

Results

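Ovaries of second-generation (F2) mice were compared by RNA-Seq between 5 daughters of IVF-conceived males and 4 daughters of naturally conceived males, 9 of the 72 samples in the series. They were chosen by their labels alone (generation, age, tissue and group), and every gene was described. The males that sired them came from CF-1 mothers and SJL/B6 fathers heterozygous for a GFP transgene: the naturals after mating in a natural estrous cycle, and the IVF males from superovulated CF-1 eggs fertilized in vitro, cultured to the blastocyst stage and transferred to pseudopregnant females. Sires of both kinds were paired at 12 weeks with CF-1 dams carrying no transgene (wild-type). The F2 daughters of both groups were therefore themselves conceived in vivo and naturally delivered, and 1 frozen ovary per animal was used at 12 weeks. Below, "naturals" and "IVF" name the daughters by the origin of their sire. The sires were crosses of unlike strains, so the alleles that daughters received could differ between litters, and the sources used here give neither the litter nor the sire of a library, nor the day of the estrous cycle.

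The ovary makes oocytes and steroid hormones. Granulosa cells surround the oocyte and make estradiol from androgens that theca cells supply, and after ovulation the follicle becomes a corpus luteum, whose cells make progesterone. All of these hormones are built from cholesterol, which the cells take up from lipoproteins or make from acetyl-CoA through the mevalonate pathway. The genes of that pathway are known to be switched on together by the transcription factor SREBP-2 when cell sterol is low.

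The 20 genes of cholesterol synthesis were all higher in IVF than in naturals, with a median log2 fold change of 0.90 against -0.01 for all genes tested. No single gene passed the test used here, the quasi-likelihood test of edgeR (Benjamini-Hochberg adjusted p under 0.05 and a fold above 1.5). The genes closest to it were Lss (lanosterol synthase) and Sgk1 (a kinase induced by serum and glucocorticoids), both with an adjusted p of 0.0577. The DESeq2 Wald test, applied to the same counts with the same limits, called 64 genes higher (0.417%) and 26 lower (0.169%). Of the 20 cholesterol synthesis genes it called 11, all of them higher. Of 10 luteal genes 8, and of 14 steroid hormone synthesis genes 11, had a positive log2 fold change (medians 0.45 and 0.42). These 2 lists share members. Of 19 oocyte genes 17 had a negative one (median -0.31). Of all 16502 genes tested, 7874 had a positive log2 fold change and 8628 a negative one.

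Because the cholesterol genes stood together, the bases in front of 5 of them are shown to let the shared letters be seen. They are the stretches of at most 250 bases upstream of the transcription start, up to the first base of the gene as annotated, from RefSeq on GRCm38.p6, the build of the counts. Capitals mark 3 letter strings searched on both strands: CCAAT, the core of the NF-Y site, GGGCGG, the core of the Sp1 site, and TCACNCCAC, a form of the sterol regulatory element that SREBP-2 binds. The 3 strings do not overlap one another in these stretches.
Lss (chr10:76531355-76531564, plus strand): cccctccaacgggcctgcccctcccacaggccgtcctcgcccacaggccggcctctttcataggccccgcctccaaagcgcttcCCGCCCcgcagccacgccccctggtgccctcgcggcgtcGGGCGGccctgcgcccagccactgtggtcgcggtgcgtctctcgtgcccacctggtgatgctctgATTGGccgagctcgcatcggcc
Acat2 (chr17:12960726-12960975, minus strand): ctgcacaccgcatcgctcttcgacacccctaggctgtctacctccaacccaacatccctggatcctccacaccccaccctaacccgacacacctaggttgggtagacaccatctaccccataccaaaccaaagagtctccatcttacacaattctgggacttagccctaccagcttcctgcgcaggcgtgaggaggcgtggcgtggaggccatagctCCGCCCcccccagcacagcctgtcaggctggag
Hmgcs1 (chr13:119690101-119690350, plus strand): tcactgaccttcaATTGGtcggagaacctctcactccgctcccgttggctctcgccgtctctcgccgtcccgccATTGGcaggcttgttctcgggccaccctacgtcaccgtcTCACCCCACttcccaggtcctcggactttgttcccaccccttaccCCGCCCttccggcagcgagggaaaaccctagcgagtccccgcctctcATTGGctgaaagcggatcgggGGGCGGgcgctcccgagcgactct
Idi1 (chr13:8885356-8885605, plus strand): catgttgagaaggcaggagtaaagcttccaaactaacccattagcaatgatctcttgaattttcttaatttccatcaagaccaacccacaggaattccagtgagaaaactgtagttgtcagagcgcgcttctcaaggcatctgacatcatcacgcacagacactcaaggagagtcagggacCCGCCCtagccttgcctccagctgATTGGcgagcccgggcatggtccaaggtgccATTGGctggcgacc
Cyp51 (chr5:4104698-4104947, minus strand): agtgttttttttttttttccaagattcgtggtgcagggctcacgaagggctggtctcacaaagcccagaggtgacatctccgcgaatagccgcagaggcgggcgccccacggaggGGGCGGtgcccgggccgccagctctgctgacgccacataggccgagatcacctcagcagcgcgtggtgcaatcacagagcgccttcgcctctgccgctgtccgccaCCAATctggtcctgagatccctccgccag
Of the 20 genes, 15 matched the RefSeq promoter table, with 18 upstream windows of 250 bases. CCAAT stood in 14 of the 18 windows (77.8%) against 33.8% of all 32851 windows, and Acat2 was the only one of the 15 genes with none. GGGCGG stood in 15 of the 18 (83.3%) against 32.7% of all. The string TCACNCCAC was found in 1 window, that of Hmgcs1, against 1.05% of all. A match is a description of the letters and not of a bound site.

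Total counts assigned to genes were 17372532 to 49192804 in naturals and 11489461 to 16553139 in IVF, so that every natural was deeper than every IVF library (difference in mean log2 total -0.67, exact two-sided permutation test, p = 0.00794, the smallest that 4 against 5 allows). With counts thinned to the smallest library, the cholesterol genes kept a median log2 fold change of 0.91. The ovary label fitted its markers: all 9 libraries held Fshr, the FSH receptor of granulosa cells (19.6 to 39.96 CPM), the luteal gene Prlr (858.1 to 1976 CPM) and the oocyte gene Gdf9 (53.2 to 98.3 CPM). Levels are given as CPM, a gene's count relative to the library total after TMM scaling, and are not corrected for gene length.

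One natural stood apart before any comparison. The summed level of 8 oviduct epithelium genes was 17.5, 1344, 9.17 and 4.7 CPM in naturals 1 to 4 and 101.5, 7.56, 6.96, 21.5 and 13.2 CPM in IVF 1 to 5. Ovgp1, oviductal glycoprotein and the defining oviduct marker, was at 6.3, 1069.8, 4.63 and 1.57 CPM in naturals 1 to 4 and at 70.4, 3.44, 1.86, 6.79 and 3.84 CPM in IVF 1 to 5. The same library, natural 2, held 19 motile cilia genes at 712.3 CPM summed, against 35.6 to 69.6 CPM in the other 8. Foxj1, the regulator of motile cilia, was at 0.324, 124, 2.59 and 0.433 CPM in naturals 1 to 4 and at 7.22, 0.501, 0.256, 9.05 and 1.57 CPM in IVF 1 to 5. IVF 1 was second in oviduct genes and held 8 adipocyte genes at 159.4 CPM, against 15.8 to 45.0 CPM elsewhere. Natural 2 therefore carried oviduct transcripts, and the main counts of calls below were also made without it.

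**Figure D1:**
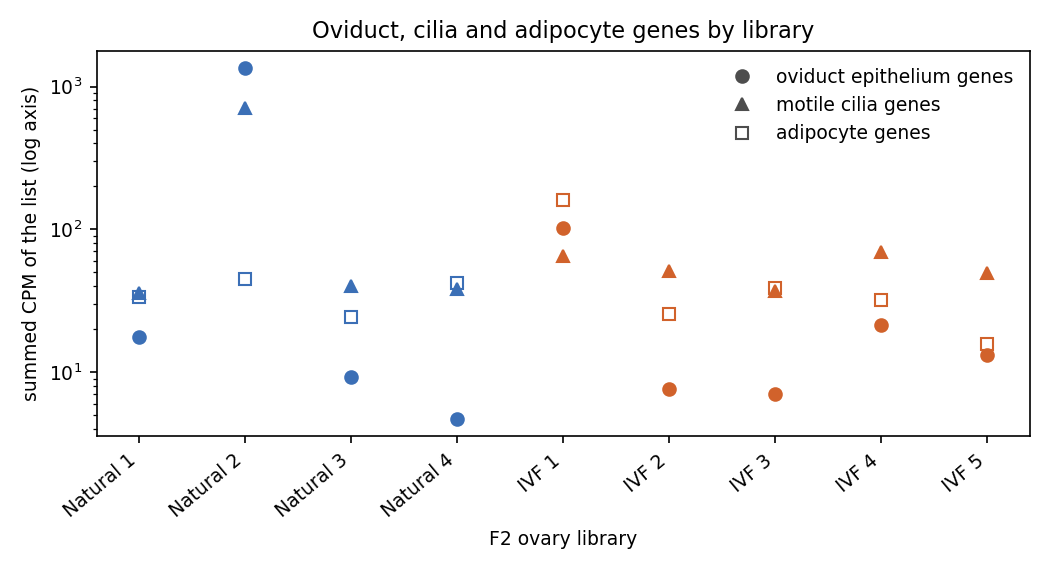
Summed CPM of oviduct epithelium (filled circles), motile cilia (triangles) and adipocyte genes (open squares) in each F2 ovary library, on a log axis, with naturals in blue and IVF in orange. Natural 2 reaches 1344 CPM of oviduct genes and 712.3 CPM of cilia genes, and IVF 1 reaches 101.5 CPM of oviduct and 159.4 CPM of adipocyte genes.

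Across all genes, the groups took 14.3% of the variance in log2 CPM, against a median of 12.1% over all 126 ways to label 4 of the 9 libraries (exact one-sided permutation test, p = 0.19). Principal component 1 (26.4% of the variance) set natural 2 apart, and none of the first 3 components parted the groups. Without natural 2 the share was 15.6% (exact one-sided permutation test, p = 0.25), and component 3 (14.6% of the variance) parted naturals from IVF.

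Of 16502 genes tested, 0 (0%) were DEGs by edgeR's quasi-likelihood test, and 1757 had an unadjusted p under 0.05, of which 956 (5.79%) were higher and 801 (4.85%) lower in IVF. The lowest IVF value lay above the highest natural value for 343 genes (2.08%), and the groups were apart in the other direction for 258 (1.56%). The DESeq2 Wald test called 64 of 15345 genes with an adjusted p higher (0.417%) and 26 lower (0.169%). Without natural 2, edgeR again called 0 genes (lowest adjusted p 0.109), with 691 of 16659 (4.15%) higher and 586 (3.52%) lower at an unadjusted p under 0.05. DESeq2 then called 42 higher (0.248%) and 16 lower (0.0946%), and 43 of these 58 were among the 90 called with all libraries. Leaving out 1 library gave edgeR DEGs in 3 of 9 cases: Lss without natural 1, Gm15772 without IVF 2, and Cyp4f17, Nrxn2 and Bpifb5 without IVF 3 (the last 4 genes named after their values were seen). With fewer or more low genes tested, Lss and Sgk1 passed. An adjusted p below is named by its tool.

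The 5 genes of smallest p among those higher in IVF were Lss, Sgk1, Acat2, Chrna2 and Sqle, and 3 of them (Lss, Acat2 and Sqle) make cholesterol. Lss (chr10:76531565-76557139), which closes squalene epoxide into the first sterol, was at 61.5, 43.3, 48.5 and 52.3 CPM in naturals 1 to 4 and at 83.7, 105, 95.5, 88.7 and 97.1 CPM in IVF 1 to 5. Its log2 fold change was 0.87 ± 0.11 (SE), 1.83-fold, with an adjusted p of 0.0577 in edgeR and 8.74e-09 in DESeq2. Sgk1 (chr10:21882184-21999903) was at 433, 307, 387 and 409.6 CPM in naturals 1 to 4 and at 741, 918, 779, 649.6 and 740.1 CPM in IVF 1 to 5. This was 1.99-fold higher in IVF (log2 fold change 0.99 ± 0.13, adjusted p 0.0577 in edgeR and 2.29e-10 in DESeq2). In both genes the lowest IVF library lay well above the highest natural, and natural 2 was the lowest of all 9.

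Acat2 (chr17:12943042-12960725), the cytosolic thiolase of the pathway's first step, was at 41.8, 34.5, 46.4 and 56.5 CPM in naturals 1 to 4 and at 76.6, 87.2, 102, 80.1 and 78.5 CPM in IVF 1 to 5. Sqle (chr15:59315092-59331193), squalene epoxidase, was at 105, 80.3, 96.1 and 114 CPM in naturals 1 to 4 and at 213, 225, 198, 139 and 169.9 CPM in IVF 1 to 5. Both were apart between groups, by 1.9-fold and 1.91-fold, with an adjusted p of 0.186 each in edgeR and of 2.68e-06 and 7.14e-06 in DESeq2. Chrna2 (chr14:66133236-66152948), a subunit of the nicotinic acetylcholine receptor, was a low gene at 3.85, 4.5, 3.1 and 2.49 CPM in naturals 1 to 4 and at 7.28, 9.27, 14.9, 20.3 and 16.4 CPM in IVF 1 to 5, 3.89-fold higher (edgeR adjusted p 0.186, DESeq2 4.17e-07). IVF 3 to 5 were higher in Chrna2 than IVF 1 and 2, and each of the 5 lay above all naturals.

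Among the genes of smallest p lower in IVF were Gm14230, Sytl2, Dab2 and Sorl1, and in each of them the groups did not overlap. Gm14230, a gene without a known role at chr2:156830706-156838089, was at 27.8, 28.3, 32.8 and 28.9 CPM in naturals 1 to 4 and at 19.7, 21.6, 16.9, 19.6 and 18.2 CPM in IVF 1 to 5 (log2 fold change -0.62 ± 0.10). Sytl2, a synaptotagmin-like protein of vesicle transport at chr7:90302211-90410719, was at 30.4, 27.3, 33.4 and 26 CPM in naturals 1 to 4 and at 18.9, 18.2, 21.3, 19.4 and 18.1 CPM in IVF 1 to 5 (log2 fold change -0.61 ± 0.10). Both had an edgeR adjusted p of 0.186 and passed both limits of DESeq2 (adjusted p 9.47e-05 and 0.000367). Dab2, an adaptor for endocytosis of lipoprotein receptors, averaged 163 ± 6.56 CPM (SD, n = 4) in naturals and 125 ± 7.07 CPM (SD, n = 5) in IVF. Sorl1, a sorting receptor of neurons and other cells, averaged 65.4 ± 5.4 CPM (SD, n = 4) and 46.7 ± 4.52 CPM (SD, n = 5). Dab2 and Sorl1 were under the fold limit of 1.5 and had an edgeR adjusted p of 0.213 each and DESeq2 adjusted p-values of 0.000303 and 0.00387.

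All 20 cholesterol synthesis genes were measured and tested. Every one was higher in IVF by log2 fold change (0.30 to 2.35), 17 had an unadjusted p under 0.05 in that direction against 5.79% of all genes, and 10 had groups that did not overlap against 2.08%. Without natural 2, 15 of the 20 had an unadjusted p under 0.05 (4.15% of all genes) and the median log2 fold change was 0.81. DESeq2 called 11 of them higher with all libraries and 8 without natural 2, against 0.417% and 0.248% of all genes with an adjusted p. Summed over the list, the level was 2596, 1816, 2669 and 2581 CPM in naturals 1 to 4 and 4382, 4985, 4608, 4248 and 4924 CPM in IVF 1 to 5. The 5 IVF ovaries lay within 4248 to 4985 CPM, the lowest of them above the highest natural, and natural 2 was the lowest library.

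In the early pathway, which builds isoprenoids, Hmgcs1 (HMG-CoA synthase) was at 312, 279.6, 303 and 337 CPM in naturals 1 to 4 and at 567, 767, 405, 772 and 494 CPM in IVF 1 to 5, 1.95-fold higher (log2 fold change 0.96 ± 0.18, adjusted p 0.229 in edgeR and 9.47e-05 in DESeq2). Idi1, the isomerase of isopentenyl diphosphate, was at 13.8, 7.21, 8.01 and 10.1 CPM in naturals 1 to 4 and at 24.6, 30.8, 20, 16.8 and 16.1 CPM in IVF 1 to 5, 2.2-fold higher (edgeR adjusted p 0.266, DESeq2 0.00166). The kinases Mvk and Pmvk and the decarboxylase Mvd had log2 fold changes of 0.51 ± 0.15, 0.47 ± 0.12 and 0.99 ± 0.27, and of the 3 the groups were apart in Pmvk only. Fdps (farnesyl diphosphate synthase) varied widely among naturals, from 188.7 CPM in natural 2 to 523 CPM in natural 1, and had a log2 fold change of 0.76 ± 0.32.

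In the steps committed to sterols, Fdft1 (squalene synthase) was at 73.3, 76.2, 68.6 and 86.2 CPM in naturals 1 to 4 and at 111, 120.3, 103, 105 and 97.5 CPM in IVF 1 to 5. Its groups were apart, with the smallest SE of the list (log2 fold change 0.50 ± 0.09), below the fold limit at 1.41-fold. Cyp51, which removes the 14-alpha methyl group of lanosterol, was at 109.6, 85.4, 79.9 and 117 CPM in naturals 1 to 4 and at 237, 296, 234, 139 and 165 CPM in IVF 1 to 5, 2.19-fold higher (edgeR adjusted p 0.253, DESeq2 9.18e-05). IVF 4 was the lowest IVF library in Cyp51 and was also the lowest in Msmo1, Nsdhl, Ebp and Tm7sf2, enzymes acting on the next intermediates. Msmo1 (sterol methyl oxidase) was at 180.5, 135, 158 and 201 CPM in naturals 1 to 4 and at 375, 431, 375, 189.7 and 321 CPM in IVF 1 to 5, with IVF 4 inside the range of naturals, and had a log2 fold change of 1.00 ± 0.22 (edgeR adjusted p 0.278, DESeq2 0.000722). Nsdhl had a log2 fold change of 0.81 ± 0.21 (edgeR adjusted p 0.34, DESeq2 0.0179), and DESeq2 did not call it without natural 2.

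Dhcr7, the last enzyme before cholesterol in one branch, was at 411, 291, 748 and 440.0 CPM in naturals 1 to 4 and at 1174, 1017, 1142, 759 and 1011 CPM in IVF 1 to 5, 2.16-fold higher (edgeR adjusted p 0.296, DESeq2 0.00064). Natural 3 came close to IVF 4, and without natural 2 its adjusted p in DESeq2 was 0.00397. Hsd17b7, which acts both in cholesterol synthesis and in making estradiol, was at 74.3, 43, 83.8 and 90.4 CPM in naturals 1 to 4 and at 72.6, 103, 159, 748 and 770.3 CPM in IVF 1 to 5. Its log2 fold change of 2.35 ± 0.80 was the largest of the list. IVF 4 and IVF 5 were far above the other 3, and IVF 1 lay inside the range of naturals. Sc5d, an enzyme just before Dhcr7, had a log2 fold change of 0.46 ± 0.15. Tm7sf2 and Ebp, named here though their unadjusted p was above 0.05, had log2 fold changes of 0.56 ± 0.35 and 0.30 ± 0.18.

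**Figure D2:**
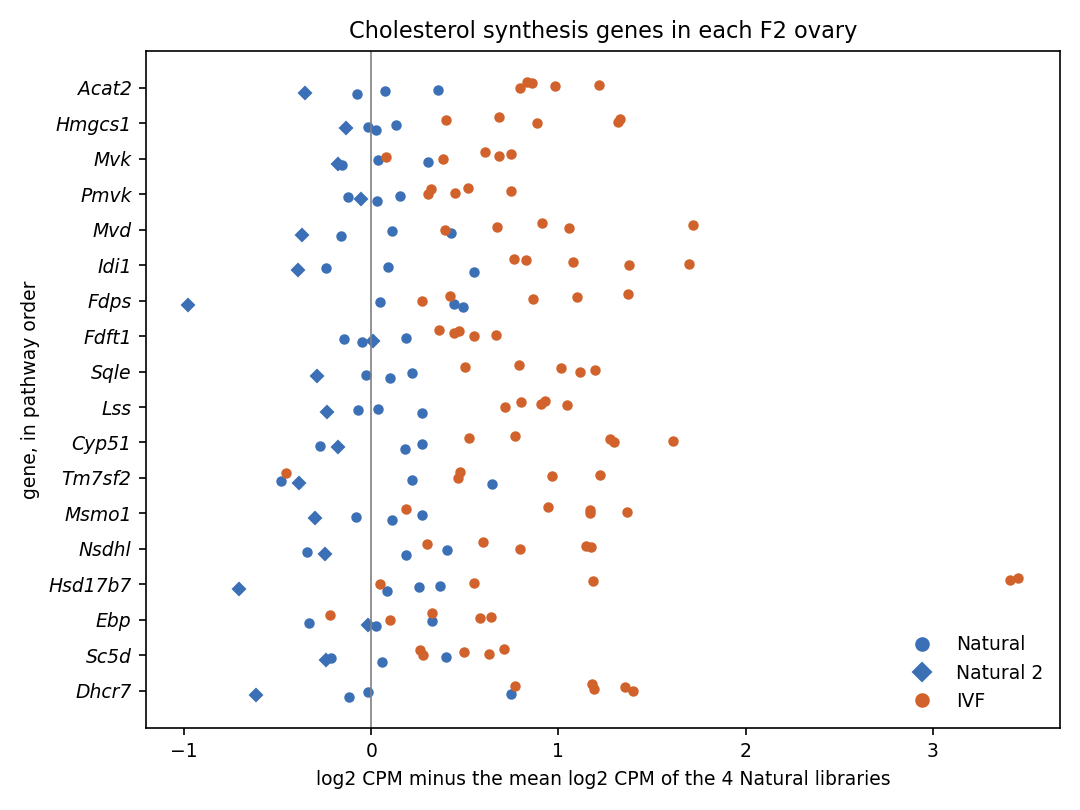
The 18 cholesterol synthesis genes drawn, in pathway order (vertical axis), each point 1 ovary library, as log2 CPM minus the mean log2 CPM of the 4 naturals (horizontal axis). Naturals are blue (natural 2 as a diamond) and IVF orange. In 9 of them, among these Lss, Acat2, Sqle and Hmgcs1, every orange point lies right of every blue one, and Hsd17b7 shows IVF 4 and IVF 5 far from the rest.

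Genes for sterol uptake, storage and sensing were mixed. Of 11, 6 were higher and 1 lower at an unadjusted p under 0.05, against 5.79% and 4.85% of all genes, with a median log2 fold change of 0.30. Without natural 2 the counts were 3 and 1, against 4.15% and 3.52%. Lipe, the hormone-sensitive lipase that frees stored cholesterol, averaged 50.3 ± 8.46 CPM (SD, n = 4) in naturals and 73.8 ± 9.23 CPM (SD, n = 5) in IVF, and its groups were apart. Stard4, a sterol carrier, Insig1, a sterol sensor that holds back SREBP-2, Srebf2, which encodes SREBP-2, and Nr1h2, an oxysterol receptor, had log2 fold changes of 0.50 ± 0.13, 0.30 ± 0.12, 0.30 ± 0.13 and 0.17 ± 0.06. Abca1, the exporter of cholesterol that rises when sterol is plentiful, was the member lower in IVF, with a log2 fold change of -0.47 ± 0.16.

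The lists of steroid hormone synthesis and luteal cell genes share Scarb1, Star, Hsd3b1, Cyp11a1 and Akr1c18. Of 14 steroid hormone synthesis genes, 6 had an unadjusted p under 0.05, all higher, against 5.79% of all genes (4 without natural 2, against 4.15%). Of 10 luteal genes 3 did, all higher (3 also without natural 2, and 5 without IVF 4). With all libraries, Scarb1 and Cyp11a1 are in both of these counts. Hsd17b7 is in the steroid count and, as a member of that list too, in the cholesterol synthesis count. The members with a negative log2 fold change were Akr1c18, which breaks down progesterone (-0.32 ± 0.35), and Timp3 (-0.19 ± 0.13) of the luteal list, and Akr1c18, Cyp17a1 and Srd5a1 (-0.30 ± 0.33) of the steroid list. Timp3 and Srd5a1 are named here after their values were seen. The summed luteal level was 33214, 21342, 35403 and 34246 CPM in naturals 1 to 4 and 49043, 40667, 49450.0, 35465 and 36392 CPM in IVF 1 to 5. The groups did not overlap, but IVF 4 at 35465 CPM was close to natural 3 at 35403 CPM, and natural 2 was the lowest. In bulk RNA, for this and every other list, a change in the number of cells of a type and a change in RNA per cell cannot be told apart.

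Scarb1, the receptor that takes cholesterol from high-density lipoprotein into steroidogenic cells, was at 1991, 1329.5, 2173 and 1996 CPM in naturals 1 to 4 and at 3569, 3182, 3638, 2775 and 3166 CPM in IVF 1 to 5, 1.74-fold higher with groups apart (log2 fold change 0.80 ± 0.15, adjusted p 0.213 in edgeR and 7.54e-05 in DESeq2). Cyp11a1, which makes pregnenolone from cholesterol, was at 6914, 5396, 7766 and 7424 CPM in naturals 1 to 4 and at 11986, 9641, 13316, 9639 and 8379 CPM in IVF 1 to 5, 1.54-fold higher with groups apart (edgeR adjusted p 0.34, DESeq2 0.0129). Fdx1, the ferredoxin that feeds electrons to it, was at 715, 757, 729 and 921 CPM in naturals 1 to 4 and at 1585, 1390.1, 1067, 1219 and 892 CPM in IVF 1 to 5, and IVF 5 lay inside the range of naturals (edgeR adjusted p 0.323, DESeq2 0.0104). Without natural 2, DESeq2 still called Scarb1 but neither Cyp11a1 nor Fdx1. The partner reductases Fdxr and Por had log2 fold changes of 0.41 ± 0.16 and 0.45 ± 0.12, and Prlr, the prolactin receptor of luteal cells, one of 0.47 ± 0.15 with groups apart.

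Star, which carries cholesterol into mitochondria, was at 4768, 2595, 7335 and 2715 CPM in naturals 1 to 4 and at 8845, 5159, 9138, 7590.0 and 4456 CPM in IVF 1 to 5, and the groups overlapped (log2 fold change 0.69 ± 0.35, adjusted p 0.502 in edgeR and 0.477 in DESeq2). Hsd3b1, which makes progesterone, had a log2 fold change of 0.44 ± 0.24 with overlap as well. Cyp17a1, the androgen-making enzyme of theca cells, ranged from 64.1 to 1125 CPM in naturals and from 88.6 to 747.5 CPM in IVF. Cyp19a1, the aromatase of granulosa cells, ranged from 5.92 to 81.9 CPM in naturals and from 38.5 to 131.6 CPM in IVF. Lhcgr, the LH receptor, ranged from 91.4 to 230.6 CPM and from 53.3 to 443.9 CPM. These 3 genes are known to vary through the estrous cycle. In each the groups overlapped, with log2 fold changes of -0.51 ± 0.81, 0.41 ± 0.64 and 0.73 ± 0.58.

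The summed cholesterol synthesis level was 7.82%, 8.51%, 7.54% and 7.54% of the summed luteal level in naturals 1 to 4, and 8.94%, 12.3%, 9.32%, 11.98% and 13.5% of it in IVF 1 to 5. The lowest IVF value lay above the highest natural value, with IVF 1 and natural 2 nearest to each other. Hsd17b7 gave 748 and 770.3 CPM of the sums of IVF 4 and IVF 5. Without it, an alternative chosen after seeing the data, the sums were 1773 to 2585 CPM in naturals and 3500.3 to 4883 CPM in IVF. The shares were then 7.27% to 8.31% in naturals and 8.79% to 12.01% in IVF, with 9.87% in IVF 4 and 11.4% in IVF 5. These shares are given as a description, with no test.

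**Figure D3:**
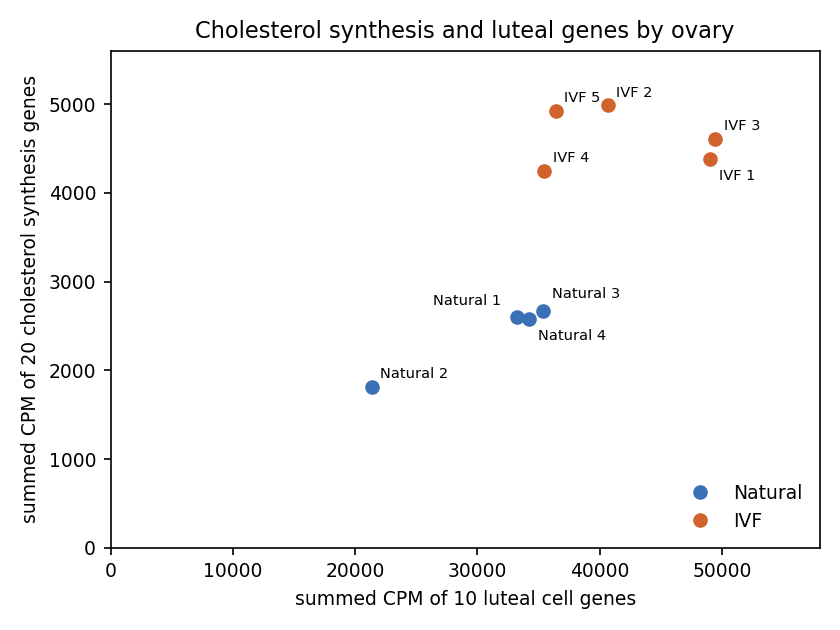
Summed CPM of 20 cholesterol synthesis genes (vertical axis) against summed CPM of 10 luteal cell genes (horizontal axis), each point 1 F2 ovary, naturals in blue and IVF in orange. Naturals 1, 3 and 4 have 33214 to 35403 CPM of luteal genes and 2581 to 2669 CPM of cholesterol genes. Natural 2 has 21342 and 1816 CPM. IVF 1 to 3 have 40667 to 49450 CPM of luteal genes and 4382 to 4985 CPM of cholesterol genes. IVF 4 and IVF 5, at 35465 and 36392 CPM of luteal genes, have 4248 and 4924 CPM of cholesterol genes, of which Hsd17b7 gives 748 and 770.3 CPM.

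Of 20 oocyte genes 19 were tested, and 17 had a negative log2 fold change (median -0.31), against 8628 of all 16502 genes. Lower at an unadjusted p under 0.05 were 9 oocyte genes, against 4.85% of all genes (10 without natural 2, against 3.52%, and 5 without natural 3). The groups were apart in 4, against 1.56% of all genes. Summed over the list, the level was 622, 608, 721 and 699 CPM in naturals 1 to 4 and 594, 574, 543, 443 and 541 CPM in IVF 1 to 5, and the lowest natural, natural 2, stood just above the highest IVF library, IVF 1.

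The 4 oocyte genes with groups apart were Bcl2l10, Bmp15, Gdf9 and Khdc3. Bcl2l10, an oocyte relative of Bcl2, was at 30.2, 37.8, 38.3 and 40 CPM in naturals 1 to 4 and at 24.8, 30.2, 24.2, 20.9 and 24.2 CPM in IVF 1 to 5 (log2 fold change -0.56 ± 0.12, edgeR adjusted p 0.266, DESeq2 adjusted p 0.0129, just under the fold limit). Bmp15, a growth factor that oocytes send to granulosa cells, was at 40.3, 41.5, 44.4 and 44.7 CPM in naturals 1 to 4 and at 33.4, 35.9, 31, 23.3 and 31.1 CPM in IVF 1 to 5 (log2 fold change -0.47 ± 0.11). Gdf9, its partner, had a log2 fold change of -0.37 ± 0.11, and Khdc3, of the complex beneath the oocyte membrane, one of -0.39 ± 0.11. IVF 4 was the lowest library in Bmp15, Gdf9 and Bcl2l10. The zona pellucida genes Zp1 and Zp2 had log2 fold changes of -0.30 ± 0.17 and -0.25 ± 0.13. Nlrp5, Padi6, Npm2, Kpna7 and Mos, with an unadjusted p under 0.05, had log2 fold changes between -0.72 and -0.26.

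The 14 granulosa cell genes ran from -0.71 to 0.41 in log2 fold change, with a median of 0.00. Fshr, the FSH receptor, had one of 0.10 ± 0.21. Amh, the hormone of growing follicles, was the member with an unadjusted p under 0.05 and averaged 263 ± 58.4 CPM (SD, n = 4) in naturals and 186 ± 29.7 CPM (SD, n = 5) in IVF (log2 fold change -0.50 ± 0.17), with overlap. Of 7 theca and interstitial genes 3 were lower at an unadjusted p under 0.05, against 4.85% of all genes, and all 3 belong to the Hedgehog pathway. Ptch1, the Hedgehog receptor, was at 148, 153, 159 and 135 CPM in naturals 1 to 4 and at 123, 129, 103, 112 and 109.9 CPM in IVF 1 to 5, with groups apart (edgeR adjusted p 0.286, DESeq2 0.0232, under the fold limit). Hhip, a Hedgehog-binding inhibitor, had a log2 fold change of -0.58 ± 0.18 with groups apart, and Gli1, a transcription factor of the pathway, one of -0.52 ± 0.21.

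Most cell cycle, macrophage and interferon genes had negative log2 fold changes, as did 8628 of all 16502 genes tested. The share of all genes lower at an unadjusted p under 0.05 was 4.85%. All 13 cell cycle genes had a negative log2 fold change, and 4 (Mki67, Ccnb1, Ccna2 and Birc5) had an unadjusted p under 0.05, with log2 fold changes of -0.39 to -0.26. Top2a had one of -0.34 ± 0.16, and the summed levels overlapped (765.2 to 1001 CPM in naturals and 664.6 to 891.9 CPM in IVF). Of 12 macrophage genes 11 were negative and 4 had an unadjusted p under 0.05: Adgre1, the F4/80 antigen (-1.02 ± 0.29), Cd68, C1qa and Mpeg1. Natural 1 held the highest summed macrophage level, 399.6 CPM, and the groups overlapped (271.9 to 399.6 CPM in naturals and 231.5 to 292.8 CPM in IVF). Csf1r had a log2 fold change of -0.42 ± 0.20. All 8 interferon response genes were negative, with an unadjusted p under 0.05 for Ifit3 (-1.20 ± 0.42) and Usp18 (-0.76 ± 0.26) and not for Ifit1 (-0.70 ± 0.38). Their summed level was 399.8 CPM in natural 1, 195.9 to 294.7 CPM in the other naturals and 196.6 to 255.1 CPM in IVF.

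In the remaining lists few members passed an unadjusted p of 0.05. All 9 endothelial genes were positive, against 7874 of all 16502 genes. Of the 9, 2 had an unadjusted p under 0.05, against 5.79% of all genes. They were Flt1 (a VEGF receptor) and Esam (a junction protein), with log2 fold changes of 0.41 ± 0.11 and 0.37 ± 0.12. Among 11 ovulatory genes tested Runx2 was higher (0.67 ± 0.19, edgeR adjusted p 0.349, DESeq2 adjusted p 0.0388) and Runx1 lower (-0.37 ± 0.14). DESeq2 did not call Runx2 without natural 2. Of the DNA methylation genes Uhrf1 and Tet1 were lower (-0.27 ± 0.12 and -0.42 ± 0.15), and of the insulin and IGF genes Igfbp3 was higher (0.56 ± 0.17) and Irs1 lower (-0.42 ± 0.17). Single members were higher at an unadjusted p under 0.05 in glycolysis (Aldoa, 0.22 ± 0.09) and in collagen and matrix (Sparc, 0.47 ± 0.13, DESeq2 adjusted p 0.0339, under the fold limit). None of the tested genes of the imprinted, histocompatibility, immediate early, smooth muscle, lymphocyte, erythroid, adipocyte, oviduct, motile cilia or surface epithelium lists had an unadjusted p under 0.05 with all libraries. Without natural 2, such genes were 1 of 3 adipocyte, 1 of 6 oviduct and 1 of 10 immediate early genes. They were also 2 of 13 motile cilia and 2 of 10 surface epithelium genes. All were higher in IVF, where the share of all genes was 4.15%.

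**Figure D4:**
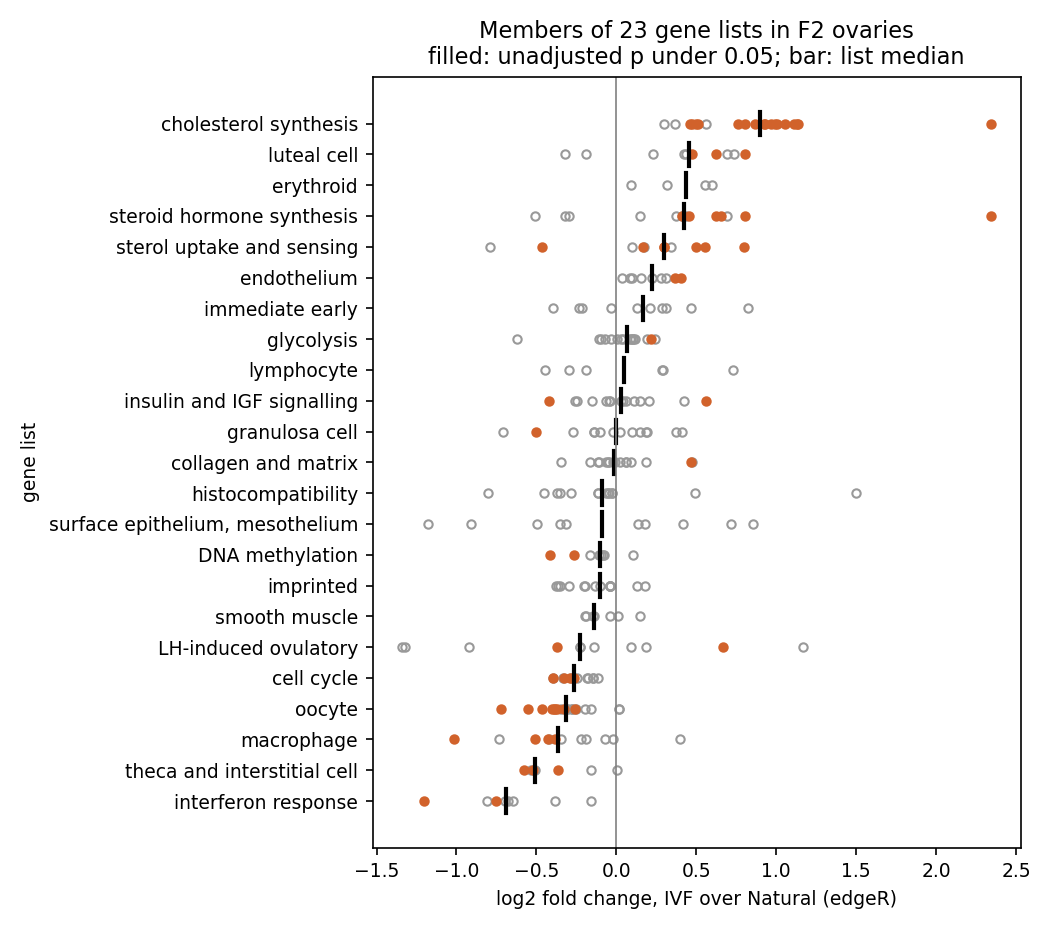
Log2 fold change of IVF over naturals in edgeR (horizontal axis) for each tested member of 23 gene lists (vertical axis, ordered by median; oviduct, cilia, adipocyte and sex lists not drawn), with filled orange points for an unadjusted p under 0.05, open grey points for the others and a black bar at the list median. Of the lists drawn, cholesterol synthesis has the highest median, 0.90, with all points right of 0, and interferon response the lowest, -0.69.

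The same genes were set beside the testes of F2 males (5 naturals and 7 IVF) and the livers of F2 females (5 and 6), each fitted on its own. The testis libraries held 20840178 to 27346141 counts and those of the liver 3947645 to 90441392. In the testis 6 of the 20 cholesterol genes had a positive log2 fold change (median -0.06), against 10752 of all 21454 testis genes. Of the 20, 0 were higher at an unadjusted p under 0.05, against 7.27% of all testis genes, and 4 were lower, against 6.64%. In the female liver 8 of 20 were positive (median -0.30), against 6210 of all 12525 liver genes. At an unadjusted p under 0.05, 4 were higher there (28.2% of all liver genes) and 10 lower (27.2%). Cyp51, for example, had a log2 fold change of -2.11 ± 0.38 in the liver, -0.33 ± 0.08 in the testis and 1.13 ± 0.22 in the ovary. Dhcr7 and Hmgcs1 in the liver had log2 fold changes of 0.50 ± 0.20 and -1.28 ± 0.25. The difference between ovary and liver was not tested.

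The difference between ovary and testis was tested in 1 edgeR quasi-likelihood fit with an interaction term over 23462 genes. It passed an adjusted p of 0.05 for 93 genes (0.396%), of which 21 were more positive in the ovary and 72 less. With DESeq2 size factors it passed for 55, of which 34 were more positive and 21 less, so the balance of directions turned with the scaling. These factors moved the difference of Lss from 0.80 to 0.95 and that of Cyp51 from 1.33 to 1.47. In the separate fits the log2 fold change of Lss was 0.87 in the ovary and -0.07 in the testis. The difference is given below with TMM scaling. Among the 20 cholesterol genes it passed for 6, all more positive in the ovary: the ovary minus testis difference in log2 fold change was 0.80 ± 0.17 (adjusted p 0.0321) for Lss, 0.84 ± 0.16 (adjusted p 0.0198) for Sqle, 1.21 ± 0.19 (adjusted p 0.00435) for Acat2, 1.33 ± 0.23 (adjusted p 0.0179) for Cyp51, 1.18 ± 0.26 (adjusted p 0.0475) for Idi1 and 1.27 ± 0.28 (adjusted p 0.0483) for Dhcr7. Without natural 2 the adjusted p was above 0.05 for Lss, Idi1 and Dhcr7 (0.0566, 0.0726 and 0.0563). Sgk1 and Scarb1 also passed, at 1.18 ± 0.18 (adjusted p 0.00435) and 0.74 ± 0.16 (adjusted p 0.036), and did so without natural 2.

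**Figure D5:**
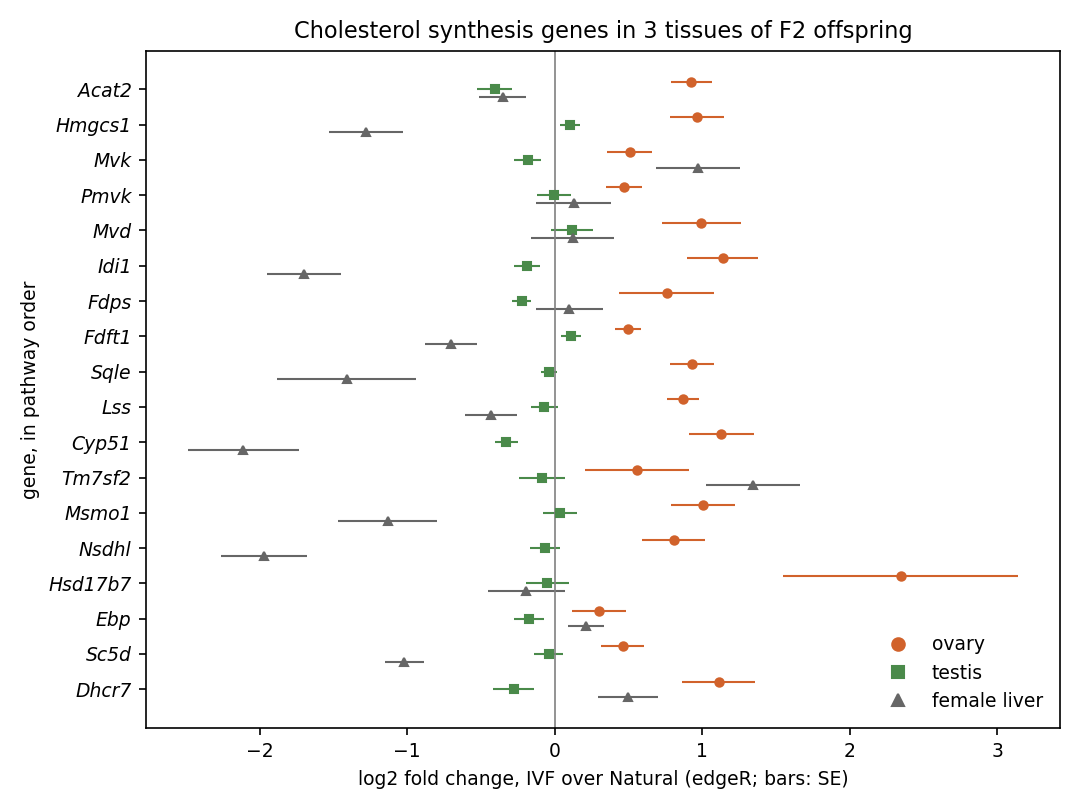
Log2 fold change of IVF over naturals (horizontal axis, bars are SE) for 18 cholesterol synthesis genes in pathway order (vertical axis) in F2 ovary (circles), testis (squares) and female liver (triangles), each from its own edgeR fit. All ovary points lie right of 0, testis points lie between -0.41 and 0.12, and liver points spread from -2.11 to 1.35.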

How the data were processed

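RNA of snap-frozen ovaries was sequenced with a stranded mRNA kit. The authors trimmed (Trimmomatic 0.32), aligned to mm10 (STAR 2.3.0e) and counted reads per gene (featureCounts 1.5.0), by the submitters' processing notes, and deposited raw counts per gene and sample. The strand setting of the counting is not given in the sources used here, so reads of overlapping and antisense genes could be mixed. From the counts, genes passing filterByExpr were tested with edgeR 4.0.16 (quasi-likelihood, TMM, robust; R 4.3.3), with Benjamini-Hochberg adjustment. DEGs passed an adjusted p of 0.05 with a fold over 1.5. DESeq2 1.42.0 was the alternative, and log2 CPM used a prior count of 2. In each library 64.1% to 69.8% of the nonzero counts up to 20 were even, and halved counts were tried as well. Why even counts were more common was not tested. Nothing in the labels says which animals share a litter or sire, so p-values measure the spread between these libraries. Scripts were tested on simulated data.

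Named genes were the 5 of smallest p in each direction, list members with an unadjusted p under 0.05, the first 2 of each list and 5 steroidogenic genes. Other names are said to be chosen later. The comparison and gene lists were chosen with earlier results of these data known. Same-numbered libraries correlated at -0.0742 to 0.0297 in their deviations, so numbers did not pair them. Some members of the lists and rules are counted but not reported by name here.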

Additional observations from a re-analysis of the deposited data

Results flagged for a closer look

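In the 120 sets of 4 or 5 libraries checked, 12 values lay farther from their group than Dixon's 95% limit, several of them from the same library. Chance gives about 1 in 20 for independent sets. These sets share libraries and genes, and the values were not on a log scale, so the 2 rates do not compare on equal terms. Natural 1 was the deepest library, at 49192804 counts. Natural 2 stood apart in summed oviduct genes (1344 CPM), motile cilia genes (712.3 CPM), surface epithelium and mesothelium genes (439.7 CPM), luteal genes (21342 CPM, lowest) and cholesterol synthesis genes (1816 CPM, lowest). Without natural 2 the median log2 fold change of the cholesterol genes was 0.81, against 0.90 with it. IVF 1 stood apart in oviduct genes (101.5 CPM), adipocyte genes (159.4 CPM) and mesothelium genes (275.2 CPM). Within the IVF group, lymphocyte genes were lowest in IVF 4 (6.74 CPM), endothelial genes lowest in IVF 2 (455.8 CPM), and Cyp19a1 highest in IVF 2 (131.6 CPM). The causes were not tested.

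The IVF difference of 11 of the 84 named genes differed between F2 ovary and F2 testis in edgeR's interaction test, against 93 of all 23462 genes (0.396%). Most named genes were picked for a small p in these same ovaries, so the 2 counts do not compare on equal terms. The ovary minus testis difference in log2 fold change was 1.33 for Cyp51, 1.27 for Dhcr7, 1.21 for Acat2, 1.18 for Sgk1, 1.18 for Idi1, 0.84 for Sqle, 0.80 for Lss and 0.74 for Scarb1. It was -1.03 for Gm14230, -1.002 for Npm2, an oocyte histone chaperone, and -0.68 for Mki67, a marker of dividing cells. With DESeq2 size factors the adjusted p of Npm2 was 0.0695 and that of Mki67 0.146, so that both lost the call, and the genes less positive in the ovary numbered 21 instead of 72.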

How the results depend on the processing

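The edgeR count of DEGs was 0, with 1757 genes at an unadjusted p under 0.05, and it was also 0 with DESeq2 size factors, no fold limit, counts halved, oviduct and cilia genes left out, or natural 2 and IVF 1 both left out. It was 90 by the DESeq2 Wald test, and 2 (Sgk1 and Lss) with no filter on low counts, with at least 10 counts in every library, with counts thinned, and with the GC trend removed. Leaving out 1 library gave 0 to 3. Without natural 2 the count was 0, 58 by DESeq2, and 0 to 4 with a further library left out. With no filter the genes at an unadjusted p under 0.05 split into 976 higher and 1215 lower, against 956 and 801.

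Replicate numbers as a block gave 0 DEGs (2 without natural 2), 1553 genes at an unadjusted p under 0.05, and 15 cholesterol, 4 luteal, 7 steroid and 9 oocyte genes. As the numbers did not pair the libraries, this is given for completeness. The cholesterol count was 15 to 20 in all settings, and all 20 genes were higher in each. The luteal count was 5 by DESeq2 and 3 to 5 with 1 library left out, and the oocyte count 5 to 12. The ovary to testis count of 93 was 55 with DESeq2 size factors.

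With 1 library left out, the log2 fold change of Ovgp1 ranged from -6.11 to 2.03, that of Foxj1 from -3.75 to 1.81, that of Fshr from -0.0753 to 0.188 and that of Cyp17a1 from -0.876 to 0.0299. Ovgp1 and Foxj1 were positive without natural 2, Fshr negative without natural 1 (-0.0113) or IVF 2, and Cyp17a1 positive without natural 4. With the block Foxj1 was 0.30 and Cyp17a1 0.0663, and without natural 2 and IVF 1 Foxj1 was 1.42. The GC, both-libraries and list-count settings were chosen after seeing the data. Of 84 named genes, these 4 changed sign in some setting. The causes were not tested. With 4 and 5 libraries, and naturals deeper throughout, low genes are the least precisely measured.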

Other observations

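Among the DESeq2 calls outside the lists, chosen after their values were seen, were Acly, Acss2 and Aacs. Acly, ATP citrate lyase, was at 371.2, 264.6, 370.1 and 333.8 CPM in naturals and at 482.1 to 561.6 CPM in IVF. Acss2, an acetyl-CoA synthetase, was at 26.5 to 45.1 CPM in naturals and 50.1 to 103 CPM in IVF, and Aacs, which activates acetoacetate, at 20.5 to 23.2 CPM and 24.9 to 46.03 CPM. In all 3 the groups did not overlap, and none of the 3 was called without natural 2. The acute-phase genes Saa2 and Saa3 were low and higher in IVF, Saa2 at 0.344 to 1.03 CPM in naturals and 2.66 to 11.96 CPM in IVF. Genes lower in IVF included C3ar1, a complement receptor of myeloid cells, at 7.67 to 12.03 CPM in naturals and 3.26 to 6.14 CPM in IVF. Sall4, a germ cell transcription factor, was also lower, at 9.11 to 11.9 CPM and 3.2 to 7.2 CPM. Without natural 2, Saa2 and Saa3 were still called but C3ar1 and Sall4 were not.

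Some called genes split within IVF. Gm15772 was at 14.01 to 17.9 CPM in naturals, at 16.4 CPM in IVF 2 and at 87.3 to 122.1 CPM in the other 4 IVF libraries. Nrxn2, a neurexin, was at 8.22 to 12.4 CPM in naturals, 10.9 CPM in IVF 3 and 28.4 to 42.7 CPM in the other 4. Cyp4f17 was at 16.5 to 23.2 CPM in naturals, 14.7 CPM in IVF 3 and 38.5 to 54.3 CPM in the others, and Bpifb5 at 33.9 to 46.8 CPM in naturals, 23.1 CPM in IVF 3 and 4.97 to 7.58 CPM in the others. Of the 90 calls, 89 were also tested in edgeR and were counted by chromosome. Chromosome 2 held 14 (1.25% of its genes with an adjusted p) and chromosome 9 held 10 (1.2%), against 0.587% of all genes. Of those on chromosome 2, 6 (Acss2, Bpifb5, Bpifb6, Fam83d, Gm14230 and Snhg17) lay between 153.9 and 158.8 Mb. These ends are set by the outermost of the 6 calls, and the share of genes called between them was not worked out. Without natural 2, DESeq2 still called Bpifb6, Fam83d and Gm14230 but not Acss2, Bpifb5 or Snhg17. The counts by chromosome were not made without natural 2. The sires were hybrids, and whether inherited alleles take part was not tested.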
